A study of Homo sapiens with 12 samples.

Results

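The 42 genes described here encode the subunits of the 26S proteasome, the factors that assemble it, a pair of activators and NFE2L1, a transcription factor of proteasome genes. They are the rows of the count files that carry 1 of 42 gene symbols, a rule that used no measured value, and all 42 were found among the 26485 genes in the files. They comprise 7 genes of the 20S alpha ring, 7 of the 20S beta ring, 4 assembly factors of the 20S core, 6 ATPases of the 19S base, 4 other subunits of the 19S base, 8 of the 19S lid, 3 assembly chaperones of the 19S base, 2 activators and NFE2L1. The cells were of OVCAR8, a long-established line of human ovarian cancer, grown in RPMI with 10% FBS and treated for 7 h. Control cells received vehicle, and the other groups received 150 nM EC359, an inhibitor of the leukemia inhibitory factor receptor (LIFR), 100 nM trametinib, an inhibitor of the kinase MEK, or the combination of both at these doses. Polyadenylated RNA was sequenced from 3 libraries per condition, 12 in all, so the data describe a single line at a single dose of each agent and a single time. The labels do not say whether the libraries of a condition came from separate cultures, so p-values measure only the spread between these libraries, which may be technical.

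The proteasome degrades proteins that carry ubiquitin chains. Its 20S core is a barrel in which the beta rings hold the protease sites and the alpha rings form the gate, and the 19S particle at its end binds ubiquitin, removes it and unfolds the substrate with a ring of ATPases. When proteasome activity falls short, NFE2L1 leaves the endoplasmic reticulum, is deglycosylated and cut, and with a small MAF protein binds antioxidant response elements in the promoters of proteasome genes, so that subunits tend to rise together. All of this is background and was not measured here.

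The libraries held from 24790392 to 32467283 reads counted on genes, and 14866 genes passed the filter on low counts, among them all 42 proteasome genes. Log2 CPM correlated across genes (which are no replicates) with r of 0.993 to 0.994 between libraries of a condition and of 0.962 to 0.989 between conditions, and the counts of no pair of libraries agreed within sampling noise. As a check of trametinib, all 5 ERK output genes in a fixed list (DUSP6, SPRY4, ETV4, ETV5 and EGR1) were lower with it, by log2 fold changes from -6.28 to -2.09. With EC359 all 5 were higher, by 0.24 to 4.90, and in the combination 4 were lower and EGR1 was higher, by 0.30, which did not pass with total counts only. Of 8 epithelial and ovarian carcinoma markers, 6 were above 1 CPM in every library, with KRT19 and MUC16 below 1 CPM throughout. Of 11 immune, endothelial and stromal markers, 8 were below 1 CPM in every library, PTPRC, CD3E, PECAM1 and VWF among them. The summed level of those 11 genes, of which COL1A1 and CD68 alone passed 1 CPM in every library, ran from 466 to 492 CPM in control, 278 to 294 under EC359, 564 to 578 under trametinib and 366 to 388 in the combination. The sum of the epithelial markers ran from 4016 to 4098 CPM in control, 3972 to 4016 under EC359, 3582 to 3691 under trametinib and 3741 to 3892 in the combination. The part of these shifts in the results below was not tested, and in bulk RNA fewer cells of a kind and less RNA per cell cannot be told apart.

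Promoter windows of RefSeq (build GRCh38.p14), 250 bases before and 50 after a gene's start, were given for 36 of the 42 genes. The core of the antioxidant response element, TGACNNNGC searched on both strands, occurred in the windows of 13 of the 36 genes (36.1%), against 19.4% of the 10689 tested genes that had a window. Those 13 were PSMA4, PSMB3, PSMC4, PSMC5, PSMD1, PSMD3, PSMD5, PSMD9, PSMD12, PSME4, PSMG1, PSMG2 and ADRM1. The windows of the 4 genes with the largest changes in the combination among those that passed the test are shown, since all 4 hold the core although 3 of the genes rose and PSMD5 fell. Of the next genes by size of change, PSMG2 (rank 5) holds the core and PSMC1 (rank 6) does not. Capitals mark the core, each sequence is written along the strand of its gene, and the genome positions are chr9:120842873-120843172 (minus strand), chr2:53970944-53971243 (minus strand), chr19:39970915-39971214 (plus strand) and chr17:39980557-39980856 (plus strand, with 2 copies).
PSMD5: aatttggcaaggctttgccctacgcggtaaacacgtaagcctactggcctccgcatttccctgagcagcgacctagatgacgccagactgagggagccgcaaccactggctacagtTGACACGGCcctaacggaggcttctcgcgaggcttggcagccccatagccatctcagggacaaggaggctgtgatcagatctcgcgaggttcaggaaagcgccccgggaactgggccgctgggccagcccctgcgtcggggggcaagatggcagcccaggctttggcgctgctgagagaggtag
PSME4: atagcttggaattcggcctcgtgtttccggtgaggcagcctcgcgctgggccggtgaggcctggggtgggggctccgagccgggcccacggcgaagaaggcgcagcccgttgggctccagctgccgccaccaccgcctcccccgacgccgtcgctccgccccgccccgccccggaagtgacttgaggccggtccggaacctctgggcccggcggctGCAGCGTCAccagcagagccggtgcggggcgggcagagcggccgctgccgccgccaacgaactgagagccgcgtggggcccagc
PSMC4: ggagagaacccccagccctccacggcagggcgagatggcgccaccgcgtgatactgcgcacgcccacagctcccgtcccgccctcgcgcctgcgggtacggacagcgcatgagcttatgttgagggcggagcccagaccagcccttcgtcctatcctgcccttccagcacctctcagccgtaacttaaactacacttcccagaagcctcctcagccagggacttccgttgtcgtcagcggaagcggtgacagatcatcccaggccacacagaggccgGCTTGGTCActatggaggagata
PSMD3: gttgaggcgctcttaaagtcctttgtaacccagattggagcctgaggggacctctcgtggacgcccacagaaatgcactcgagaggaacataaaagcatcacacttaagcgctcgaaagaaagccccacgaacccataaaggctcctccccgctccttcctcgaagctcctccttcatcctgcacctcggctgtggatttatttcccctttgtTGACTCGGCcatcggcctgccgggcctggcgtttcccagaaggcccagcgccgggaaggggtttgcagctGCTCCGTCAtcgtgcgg
The ETS core CCGGAAG occurred in 36.1% of the 36 genes, against 21.2% of the tested genes. Of the 17 genes of the 19S base and lid that had a window, 9 held it (52.9%), and of the 10 genes of the 20S rings 1 did (10.0%). The NF-Y box CCAAT was found in 55.6% against 43.0%, and the E-box CACGTG in 8.33% against 12.5%. The heat shock element core GAANNTTC was in 0 of the 36, against 6.75% of the tested genes. A core of the response element and an ETS core can lie in the same window, as they do in PSME4, PSMD9 and PSMD12. A match describes letters in a window and not a bound site.

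Compared to control, the combination raised 21 of the 42 proteasome genes and lowered 9, and 12 did not pass an adjusted p of 0.05 in edgeR (quasi-likelihood test, Benjamini-Hochberg adjustment over all 14866 genes). At the same threshold 35.0% of all genes tested were higher and 34.7% lower, against 50% and 21.4% of the proteasome genes. The 12 were PSMA2, PSMA4, PSMA6, PSMB1, PSMB2, PSMB3, PSMD4, PSMD9, PSMD12, PSMD13, PSMG3 and POMP. The changes were small, with a median log2 fold change of 0.07 beside -0.01 over all genes. A single gene, PSMD5, passed with at least a 2-fold change, a rule that 13.2% of all genes met. EC359 alone raised 21 and lowered 11, beside 30.8% and 30.3% of all genes, with a median of 0.06 against -0.01, and PSMA7, PSMB1, PSMB2, PSMB3, PSMC5, PSMD4, PSMD6, PSMD13, PSMG3 and POMP did not pass. Trametinib alone raised 0 and lowered 10, beside 13.0% and 15.2% of all genes, with a median of -0.04 against 0.00. The count of higher genes was also 0 at an unadjusted p of 0.05 in edgeR and by DESeq2. When single libraries were left out, 4 to 9 genes were lower (4 without control replicate 1, 5 without trametinib replicate 2). The 10 were PSMA5, PSMA6, PSMD2, PSMD8, PSMD12, PSMD13, PSMD14, PSME3, POMP and ADRM1. The 3 comparisons share the control libraries. Of the 13 genes with a core of the response element in their window, 6 were higher and 3 lower in the combination, and of the 23 whose windows lacked it 12 were higher and 6 lower. With total counts only these were 5 and 7, and 7 and 11.

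**Figure D1:**
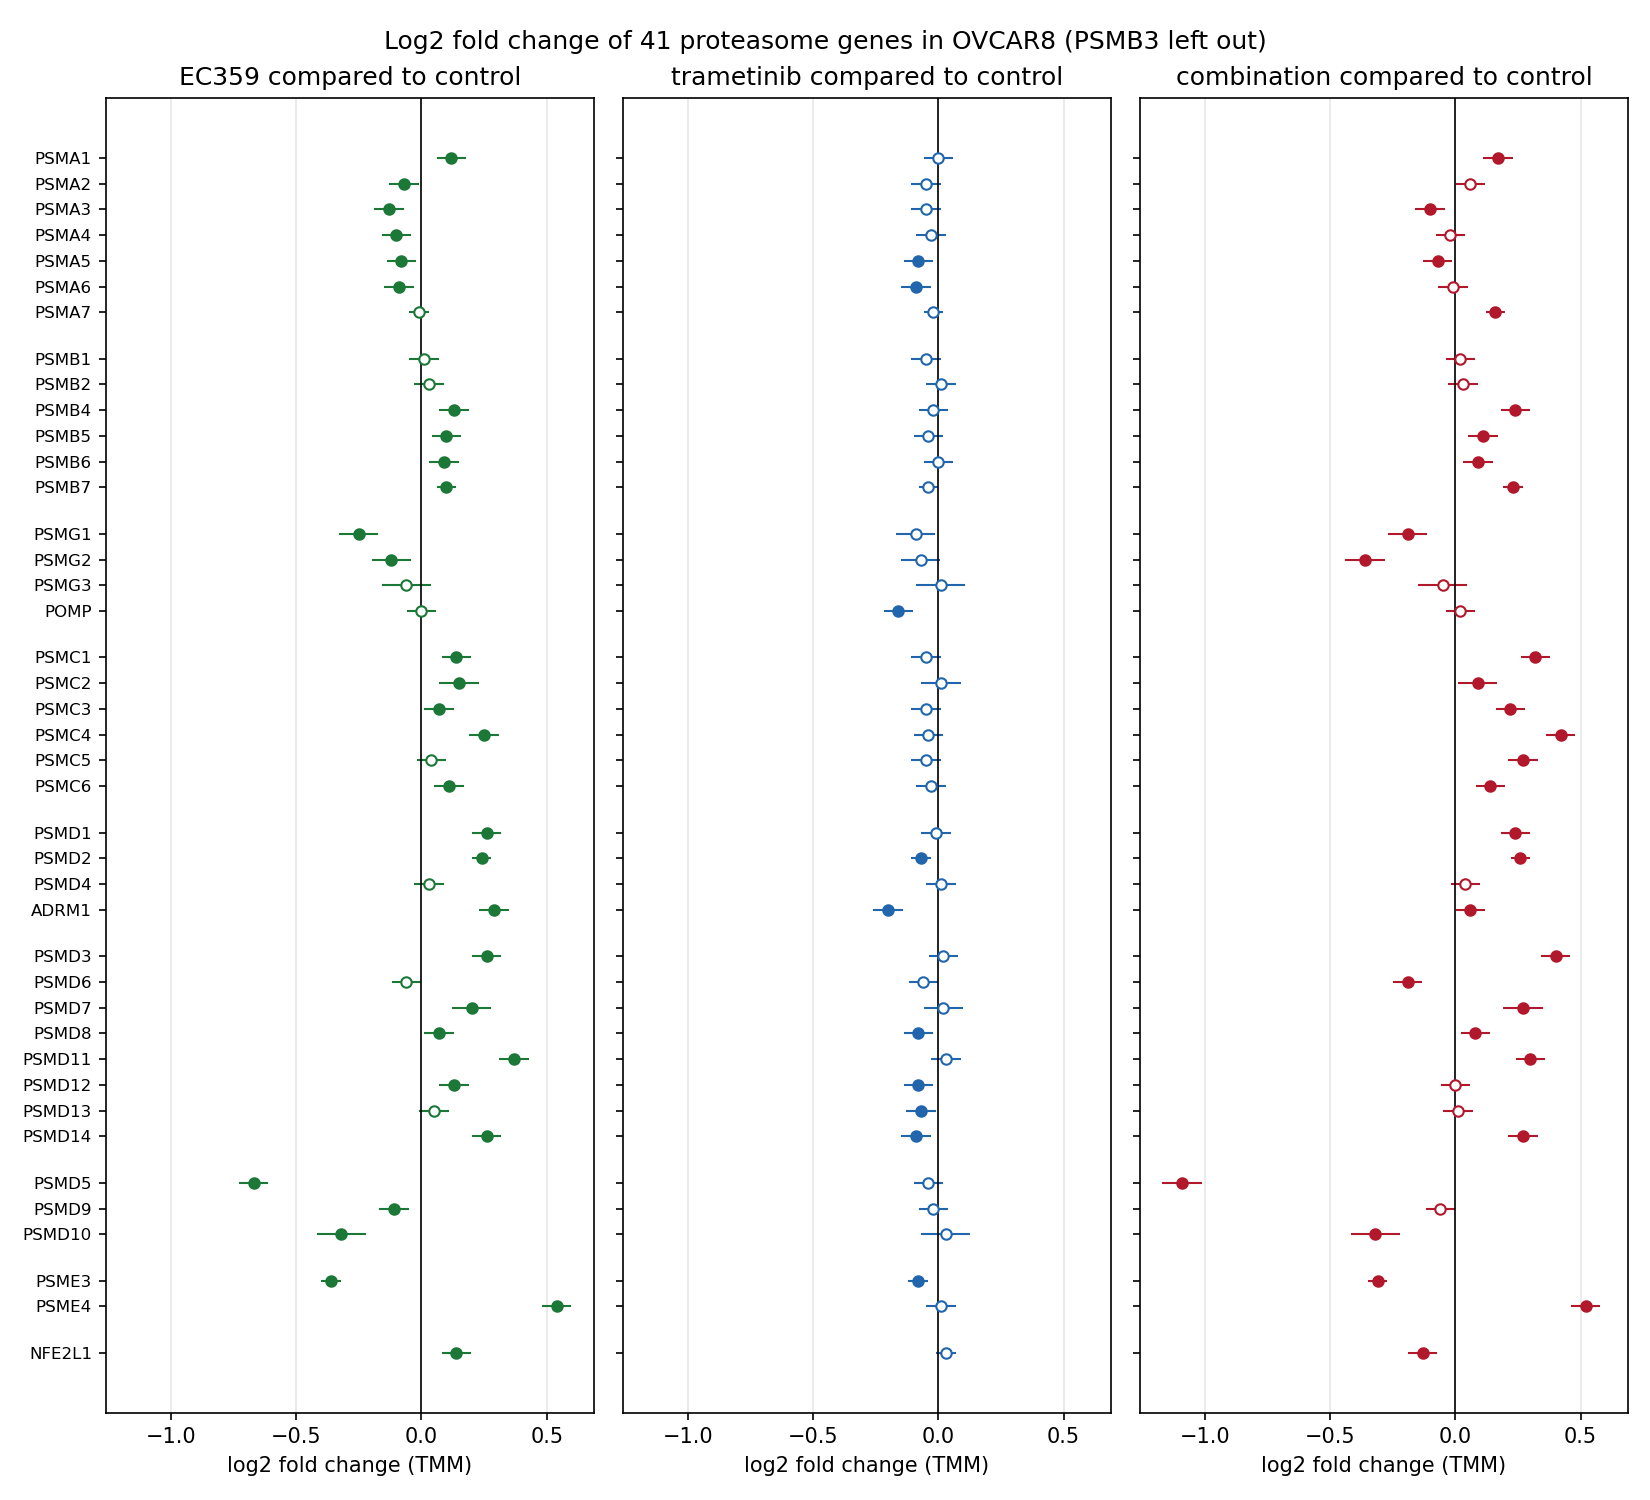
Log2 fold change of 41 proteasome genes compared to control with EC359, trametinib and the combination (x axes, TMM scale, no unit), grouped from top to bottom as alpha ring, beta ring, 20S assembly factors, ATPases, other base subunits, lid, 19S assembly chaperones, activators and NFE2L1. Points are estimates from 3 libraries a group, bars are approximate 95% intervals, filled points passed an adjusted p of 0.05, and PSMB3 is left out. ATPase points lie to the right of 0 with the combination, while PSMD5 lies farthest to the left, at -1.09.

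How many genes were counted as higher depended on the scaling. Without TMM factors (total counts only) the median of all genes was -0.15 for EC359, 0.03 for trametinib and -0.14 for the combination. The combination then gave 13 higher and 21 lower proteasome genes, beside 25.8% and 45.8% of all genes in that setting. EC359 gave 8 and 22, beside 21.0% and 44.9%, and trametinib 0 and 2, beside 16.7% and 11.9%. Relative to the median of all genes, the proteasome genes stood at 0.08 with the combination, 0.07 with EC359 and -0.05 with trametinib under both scalings. This had to be so, since a change of scaling moves all genes of a comparison by nearly the same amount. Under TMM, DESeq2's size factors and total counts alike, 13 genes were higher in the combination, namely PSMB4, PSMB7, PSMC1, PSMC3, PSMC4, PSMC5, PSMD1, PSMD2, PSMD3, PSMD7, PSMD11, PSMD14 and PSME4. The 9 lower genes, PSMA3, PSMA5, PSMD5, PSMD6, PSMD10, PSME3, PSMG1, PSMG2 and NFE2L1, were lower under all 3. With EC359, 8 genes were higher under all 3 scalings (PSMC4, PSMD1, PSMD2, PSMD3, PSMD11, PSMD14, PSME4 and ADRM1) and 10 were lower. For trametinib, POMP and ADRM1 were lower under all 3.

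In the 20S alpha ring, which gates the core, 5 of 7 genes fell with EC359 (PSMA2, PSMA3, PSMA4, PSMA5 and PSMA6) and PSMA1 rose, the median of the 7 log2 fold changes being -0.08. EC359 lowered 30.3% and raised 30.8% of all genes. With total counts only, 6 fell and 0 rose, beside 44.9% and 21.0% of all genes. The EC359 call on PSMA2 was lost with DESeq2's size factors and without control replicate 1 or 2 or EC359 replicate 1 or 3. That on PSMA4 was lost without control replicate 1 or EC359 replicate 1. In the combination PSMA1 and PSMA7 rose and PSMA3 and PSMA5 fell, whereas total counts gave 0 higher and 5 lower. The combination raised 35.0% and lowered 34.7% of all genes, or 25.8% and 45.8% with total counts only. PSMA6 was at 216, 206 and 212 CPM in control, 192, 201 and 203 CPM with EC359, 203, 196 and 197 CPM with trametinib and 211, 214 and 204 CPM with the combination. Its combination libraries overlapped the controls and lay above those of both single agents, which overlapped each other. PSMA6 changed by -0.09 ± 0.03 with EC359 and -0.09 ± 0.03 with trametinib, and the latter call was lost without control replicate 1 or trametinib replicate 2 and with total counts only. PSMA5 was at 266, 257 and 259 CPM in control, 242, 252 and 246 CPM with EC359, 239, 249.9 and 252 CPM with trametinib and 244, 256 and 246 CPM with the combination. All 9 treated libraries lay below the controls, and the treated groups overlapped each other. The log2 fold changes of PSMA5 were -0.08, -0.08 and -0.07 (standard error 0.03 in each, edgeR with Benjamini-Hochberg adjustment, adjusted p = 0.00646, 0.0156 and 0.0185) with EC359, trametinib and the combination. Each of these 3 calls was lost when control replicate 1 was left out, the EC359 call also without EC359 replicate 1, the trametinib call also without trametinib replicate 1 or with total counts only, and the combination call also without combination replicate 1 or 3.

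In the 20S beta ring 4 of 7 genes rose with EC359 and 4 with the combination, PSMB4, PSMB5, PSMB6 and PSMB7 in both, with medians of 0.09 and 0.11 and 0 lower. Of all genes, 30.8% rose and 30.3% fell with EC359, and 35.0% and 34.7% with the combination. Total counts gave 0 higher and 2 lower with EC359, and 2 higher and 2 lower with the combination. In that setting 21.0% of all genes were higher and 44.9% lower with EC359, and 25.8% and 45.8% with the combination. PSMB5 carries the chymotrypsin-like site, the target of the proteasome inhibitor bortezomib, and was at 214, 232 and 222 CPM in control, 235, 244 and 236 CPM with EC359, 214, 208 and 225 CPM with trametinib and 231, 249 and 239 CPM with the combination. EC359 libraries lay just above the controls, while the combination overlapped them. Its log2 fold change was 0.10 ± 0.03 (SE) with EC359 and 0.11 ± 0.03 with the combination, and both were -0.03 with total counts only. PSMB7, the trypsin-like subunit, had a log2 fold change of 0.23 ± 0.02 in the combination and PSMB4 one of 0.24 ± 0.03.

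PSMB3, another subunit of the beta ring, was hardly counted. It had 1.25, 2.5 and 3.21 CPM in control, 1.23, 2.05 and 2.64 CPM with EC359, 2.12, 1.52 and 2.17 CPM with trametinib and 30.9, 2.72 and 1.5 CPM with the combination, and only combination replicate 1 stood apart from the others. Its log2 fold change in the combination was 2.31 ± 1.04 (edgeR with Benjamini-Hochberg adjustment, adjusted p = 0.0776), and -0.15 (adjusted p = 0.792) without that library. DESeq2 called it (2.34, adjusted p = 0.0219). PSMB3 is the only one of the 42 that the annotation places on an alternate contig as well as on a chromosome (17, from 38752713 to 38764231 in hg38), as it does 1096 genes in all. The part of that contig in the low count was not tested, and PSMB3 was left out of the order of levels.

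Among the factors that assemble the 20S core, PSMG1 and PSMG2, which form a chaperone of the alpha ring, fell with EC359 and with the combination, PSMG3 passed in neither and POMP, which matures the beta ring, fell with trametinib and passed in neither of the others. Total counts alone gave all 4 as lower with EC359 and with the combination, beside 44.9% and 45.8% of all genes. PSMG2 was at 71.8, 72.1 and 70.3 CPM in control, 64.8, 67.4 and 64.1 CPM with EC359, 67.9, 68.1 and 68 CPM with trametinib and 53.8, 55.4 and 56.9 CPM with the combination. The 4 groups did not overlap, with control highest and the combination lowest. Its log2 fold change was -0.36 ± 0.04 in the combination (edgeR with Benjamini-Hochberg adjustment, adjusted p = 4.82e-13), -0.12 ± 0.04 with EC359 and -0.07 ± 0.04 with trametinib, which did not pass. POMP was at 113, 115 and 113 CPM in control, 117, 114 and 109.9 CPM with EC359, 104, 99 and 103 CPM with trametinib and 116, 116 and 115 CPM with the combination. The 3 trametinib libraries were the lowest of the 12, and the other groups overlapped. POMP changed by -0.16 ± 0.03 with trametinib (edgeR with Benjamini-Hochberg adjustment, adjusted p = 2.51e-05), and by 0.02 ± 0.03 with the combination, which did not pass and was -0.11 with total counts only.

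All 6 ATPases of the 19S base, the motor that unfolds substrates, rose in the combination (median 0.24 on the log2 scale), and 5 rose with EC359 (median 0.12). Of all genes, 35.0% rose in the combination and 30.8% with EC359. Total counts left 4 higher and 0 lower in the combination, and 1 higher and 2 lower with EC359. In that setting 25.8% of all genes were higher and 45.8% lower in the combination, and 21.0% and 44.9% with EC359. PSMC4 was at 147, 152 and 146 CPM in control, 176, 179 and 173 CPM with EC359, 144, 142 and 145 CPM with trametinib and 191, 202 and 202 CPM with the combination. Every combination library exceeded every EC359 library, and these exceeded control and trametinib. Its log2 fold change was 0.42 ± 0.03 in the combination and 0.25 ± 0.03 with EC359 (edgeR with Benjamini-Hochberg adjustment, adjusted p = 6.05e-20 and 4.22e-11).

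PSMC1 followed the same order, at 179, 180.1 and 177 CPM in control, 191, 205 and 195 CPM with EC359, 174, 169 and 175 CPM with trametinib and 219, 224 and 226 CPM with the combination. Its 4 groups did not overlap, and its log2 fold change in the combination was 0.32 ± 0.03. PSMC5 was at 294, 285 and 279 CPM in control, 297, 289 and 297 CPM with EC359, 278, 276 and 275 CPM with trametinib and 341, 358 and 333 CPM with the combination. Here EC359 overlapped control, and only the combination stood above both. The log2 fold change of PSMC5 was 0.27 ± 0.03 in the combination and 0.04 ± 0.03 with EC359, which did not pass and was -0.09 with total counts only. PSMC3 was at 279, 271 and 271 CPM in control, 299, 286 and 279 CPM with EC359, 263, 260.5 and 268 CPM with trametinib and 321, 323 and 311 CPM with the combination. Its combination libraries were the highest of the 12, and EC359 overlapped control. PSMC3 changed by 0.22 ± 0.03 in the combination and by 0.07 ± 0.03 with EC359, where total counts only gave a call in the other direction, at -0.06, and the EC359 call was lost without EC359 replicate 1. PSMC2 and PSMC6 rose by 0.09 and 0.14 on the log2 scale in the combination, calls that were lost with total counts only, and for PSMC2 also without control replicate 2 or 3 or combination replicate 2.

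**Figure D2:**
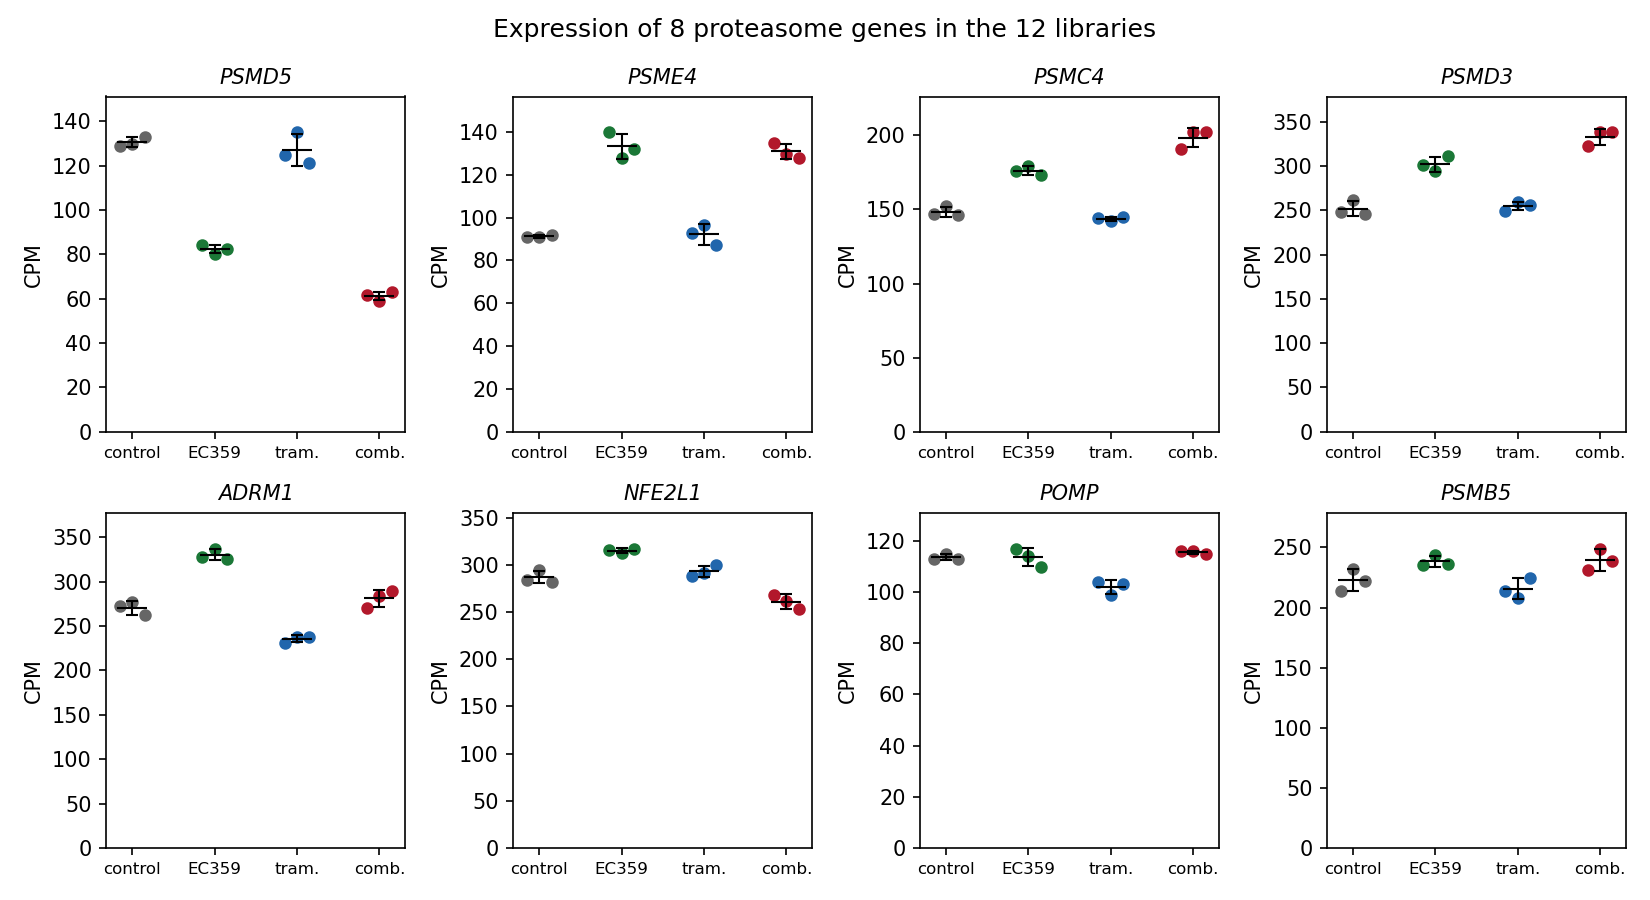
Expression of 8 proteasome genes in CPM after TMM (y axes from 0) in the 12 libraries, by condition (tram., trametinib; comb., the combination). Points are libraries, long bars are means and whiskers are SD, n = 3; PSMD5 lies between 59.1 and 62.9 CPM in the combination and between 129 and 133 CPM in control.

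Of the other subunits of the 19S base, PSMD1, PSMD2 and ADRM1 were higher with EC359 and with the combination, and PSMD4 did not pass in either. PSMD4 and ADRM1 are receptors for ubiquitin. PSMD4 was at 165, 166 and 163 CPM in control, 172, 164 and 166 CPM with EC359, 159, 172 and 166 CPM with trametinib and 167, 172 and 167 CPM with the combination. The combination libraries lay just above the controls, and EC359 and trametinib libraries overlapped both groups. The log2 fold change of PSMD4 in the combination was 0.04 ± 0.03, or -0.10 with total counts only. ADRM1 was at 272, 277 and 262 CPM in control, 328, 337 and 325 CPM with EC359, 231, 238 and 238 CPM with trametinib and 270.3, 284 and 289 CPM with the combination. EC359 libraries were the highest and trametinib libraries the lowest of the 12, and the combination overlapped control. The log2 fold change of ADRM1 was 0.29 ± 0.03 with EC359 (edgeR with Benjamini-Hochberg adjustment, adjusted p = 1.37e-14) and -0.20 ± 0.03 with trametinib (adjusted p = 1.28e-08), where it was the largest change among the proteasome genes that passed. In the combination it was 0.06 ± 0.03 (adjusted p = 0.0478), a call that was lost when control replicate 1 or 3 or combination replicate 2 or 3 was left out, with no filter or a stricter one and with only the compared groups in the fit, and that turned to -0.08 with total counts only. PSMD1 and PSMD2, the scaffold subunits, rose by 0.26 and 0.24 with EC359 and by 0.24 and 0.26 with the combination on the log2 scale, also with total counts only.

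In the 19S lid 6 of 8 genes rose with EC359 (median 0.16), and 5 rose and PSMD6 fell in the combination (median 0.17). Of all genes, 30.8% rose and 30.3% fell with EC359, and 35.0% and 34.7% in the combination. Total counts gave 3 higher and 3 lower with EC359, and 4 higher and 3 lower with the combination. In that setting 21.0% of all genes were higher and 44.9% lower with EC359, and 25.8% and 45.8% with the combination. The EC359 call on PSMD8 turned from higher (0.07) to lower (-0.06) with total counts only. PSMD3 was at 248, 262 and 246 CPM in control, 301, 294 and 311 CPM with EC359, 249.6, 259 and 256 CPM with trametinib and 323, 338 and 338 CPM with the combination. Combination libraries stood above EC359 libraries, and control and trametinib overlapped below both. PSMD11, which holds the lid to the core, was at 167, 166 and 168 CPM in control, 216, 222 and 211 CPM with EC359, 168, 172 and 172 CPM with trametinib and 209, 199 and 209 CPM with the combination. EC359 libraries were the highest, and the combination lay just under them. PSMD14, the deubiquitinase that strips ubiquitin chains from substrates, was at 139.6, 139 and 138 CPM in control, 161, 171 and 167 CPM with EC359, 134, 126 and 132 CPM with trametinib and 165, 171 and 165 CPM with the combination. EC359 and the combination overlapped above control, and trametinib lay below control. In the combination the log2 fold changes of PSMD3, PSMD11 and PSMD14 were 0.40, 0.30 and 0.27, each with a standard error of 0.03 (edgeR with Benjamini-Hochberg adjustment, adjusted p = 4.10e-20, 8.05e-15 and 5.57e-12). PSMD6 fell by 0.19 on the log2 scale. With trametinib alone PSMD8, PSMD12, PSMD13 and PSMD14 fell, the last by 0.09, and with total counts only 0 of these 4 passed. Each of the 4 calls was also lost without 1 or more single libraries, that on PSMD14 without trametinib replicate 2.

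The chaperones that put the 19S base together fell with EC359, where most genes of the base rose, and 0 of the 3 passed with trametinib. PSMD5 was at 129, 129.8 and 133 CPM in control, 84, 80.3 and 82.5 CPM with EC359, 125, 135 and 121 CPM with trametinib and 61.6, 59.1 and 62.9 CPM with the combination. Control and trametinib overlapped, EC359 lay below them and the combination lay lowest, without overlap. The log2 fold change of PSMD5 was -1.09 ± 0.04 in the combination and -0.67 ± 0.03 with EC359 (edgeR with Benjamini-Hochberg adjustment, adjusted p = 4.52e-34 and 1.24e-24), the largest change of a proteasome gene that passed in either comparison. With trametinib it was -0.04 ± 0.03, which did not pass. PSMD10, known as gankyrin, was at 40.6, 39.2 and 38.5 CPM in control, 30.3, 31.3 and 33.2 CPM with EC359, 42.9, 41.2 and 37 CPM with trametinib and 30.6, 32.2 and 31.9 CPM with the combination. EC359 and the combination overlapped each other below control and trametinib. PSMD10 changed by -0.32 ± 0.05 in the combination and -0.32 ± 0.05 with EC359. The third chaperone, PSMD9, fell by 0.11 on the log2 scale with EC359, a call lost without control replicate 2, and was at -0.06 ± 0.03 in the combination, which did not pass. With total counts only, all 3 were lower in both comparisons, beside 44.9% of all genes with EC359 and 45.8% with the combination.

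Both activators changed, in opposite directions. PSME4, which caps the core in the nucleus and opens it without ATP, was at 90.9, 90.9 and 92.1 CPM in control, 139.8, 128 and 132 CPM with EC359, 92.7, 96.7 and 87.1 CPM with trametinib and 135, 129.7 and 128 CPM with the combination. EC359 and the combination overlapped above control and trametinib, which overlapped each other. Its log2 fold change was 0.54 ± 0.03 with EC359 and 0.52 ± 0.03 with the combination (edgeR with Benjamini-Hochberg adjustment, adjusted p = 2.11e-20 and 8.06e-20), the largest increase among the proteasome genes that passed. PSME3, another nuclear activator, was at 367, 369 and 368 CPM in control, 285, 291 and 284 CPM with EC359, 349.9, 347 and 347 CPM with trametinib and 298, 299 and 296 CPM with the combination. The 4 groups did not overlap, with control highest, then trametinib, the combination and EC359. PSME3 changed by -0.36 ± 0.02 with EC359, -0.08 ± 0.02 with trametinib and -0.31 ± 0.02 in the combination, and the trametinib value did not pass with total counts only.

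NFE2L1 was at 284, 294 and 282 CPM in control, 316, 312 and 317 CPM with EC359, 288, 291 and 299.8 CPM with trametinib and 268, 262 and 253 CPM with the combination. EC359 libraries were the highest of the 12 and combination libraries the lowest, while control and trametinib overlapped. The log2 fold change was 0.14 ± 0.03 with EC359 and -0.13 ± 0.03 with the combination (edgeR with Benjamini-Hochberg adjustment, adjusted p = 3.83e-06 and 4.99e-06). With total counts only the first was 0.00 and did not pass, and the second was -0.27. NFE2L1 is controlled largely through its protein, which was not analysed here.

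Summed over genes, the ATPases held 1072 ± 17.2 CPM in control, 1156 ± 11.3 under EC359, 1038 ± 7.82 under trametinib and 1285 ± 30 in the combination (SD, n = 3 each). The alpha ring held 1405 ± 20.1, 1361 ± 35.5, 1359.9 ± 2 and 1444 ± 22.7 CPM in the same order. The ratio of these sums does not depend on scaling, and it was 0.762 ± 0.00154 in control, 0.85 ± 0.0231 under EC359, 0.764 ± 0.0052 under trametinib and 0.889 ± 0.00704 in the combination. The libraries of the combination lay above those of EC359, and both lay above control and trametinib, which overlapped. The sum of the 19S base and lid over that of the 20S rings was 1.35 ± 0.00495, 1.51 ± 0.0227, 1.34 ± 0.00513 and 1.46 ± 0.00719 in the same order, so that EC359 alone had the highest ratio. The 3 assembly chaperones over the 19S base and lid stood at 0.0728 ± 0.000661 in control, 0.0495 ± 0.000946 under EC359, 0.0743 ± 0.0021 under trametinib and 0.0443 ± 0.00106 in the combination. These ratios are descriptions over genes that share libraries and carry no test.

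**Figure D3:**
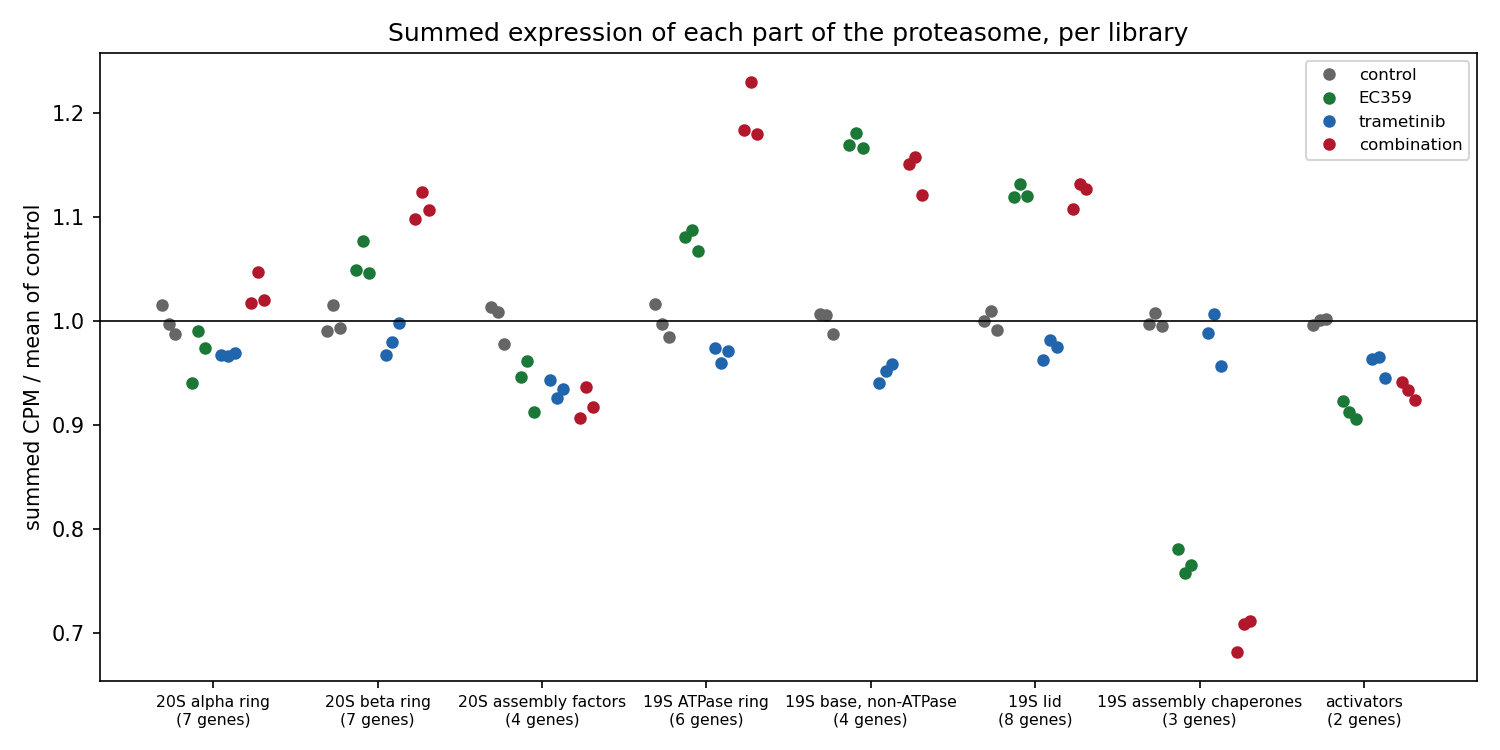
Summed CPM of each part of the proteasome in each library, divided by the control mean of that part (y axis, ratio, which does not start at 0), for 8 parts and 4 conditions. Each point is 1 library, and the line at 1 is the control mean; the 19S assembly chaperones lie lowest, at 191.5 CPM with the combination against 273.2 CPM in control, and the ATPases highest.

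Per kilobase of exon, levels in control differed widely between genes of the complex. PSMB7 was the highest at 381 ± 2.03 CPM per kb (SD, n = 3), followed by PSMA7 at 325 ± 12, PSMB4 at 245 ± 1.87 and PSMD2 at 226 ± 2.16. The lowest of the 41 genes ordered were PSMC2 at 20 ± 0.362 and PSME4 at 12.9 ± 0.0989 CPM per kb. The 13 genes of the 20S rings, whose products stand in equal numbers in the core, spanned 9.48-fold, down to PSMB2 at 40.2 ± 0.537 CPM per kb. PSMD14 to PSMA1, ranks 21 to 24, lay between 81 and 77.3 CPM per kb, where POMP, PSMC4 and PSMA1 did not differ beyond their SD. The annotation's exon length is the union over transcripts, which understates genes whose long transcripts are rare.

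The combination was also compared with each single agent. Relative to EC359, 12 of the 42 genes were higher and 7 lower in the combination (24.1% and 25.2% of all genes), with a median of 0.02 against 0.00 over all genes. Higher were 4 alpha ring genes (PSMA2, PSMA4, PSMA6 and PSMA7), PSMB4, PSMB7, 4 ATPases (PSMC1, PSMC3, PSMC4 and PSMC5), PSMD3 and PSME3. Total counts alone gave 10 higher and 7 lower (23.4% and 25.5% of all genes), PSMA4 and PSME3 no longer passing. Lower were PSMD5 (-0.43), NFE2L1 (-0.27), PSMG2 (-0.24), ADRM1 (-0.23), PSMD6, PSMD11 and PSMD12 on the log2 scale. PSMC5 had the largest increase that passed, 0.22 ± 0.03 (edgeR with Benjamini-Hochberg adjustment, adjusted p = 9.40e-11). The call on PSMD11 (-0.07) was lost without EC359 replicate 2 or combination replicate 2, and that on PSMA6 without EC359 replicate 1 or combination replicate 1 or 2. That on PSMA4 was lost without EC359 replicate 1 or 3 or combination replicate 1 or 2. PSME3 (0.06) did not pass when EC359 replicate 1 or 3 or any combination library was left out. Relative to trametinib, 26 genes were higher and 7 lower (35.2% and 32.9% of all genes), with a median of 0.13 against 0.00, or 14 higher and 20 lower with total counts only (23.5% and 47.6% of all genes). PSMD5 (-1.05), PSME4 (0.51) and PSMC4 (0.47) had the largest log2 differences from trametinib among the genes that passed.

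The interaction asks whether the log2 fold change of the combination departs from the sum of the single agents' log2 fold changes. It was higher than that sum in 13 of the 42 genes and lower in 4, at an adjusted p of 0.05 in edgeR, beside 14.4% and 15.9% of all genes. The median was 0.07 against -0.01 over all genes, and total counts gave 12 and 4, without PSMD2 (11.7% and 19.1% of all genes). Of the 6 ATPases, 4 were among the 13 (PSMC1, PSMC3, PSMC4 and PSMC5), with values of 0.20 to 0.27, as were PSMA2, PSMA6 and PSMA7 of the alpha ring. PSMC5 had the largest of the higher values, 0.27 ± 0.04 (edgeR with Benjamini-Hochberg adjustment, adjusted p = 2.08e-08). PSMD5 departed from the sum by -0.38 ± 0.05 and NFE2L1 by -0.30 ± 0.04, both log2 values in edgeR (adjusted p = 1.03e-08 and 8.00e-10). PSMG2 and PSMD11 were the other two lower genes.

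**Figure D4:**
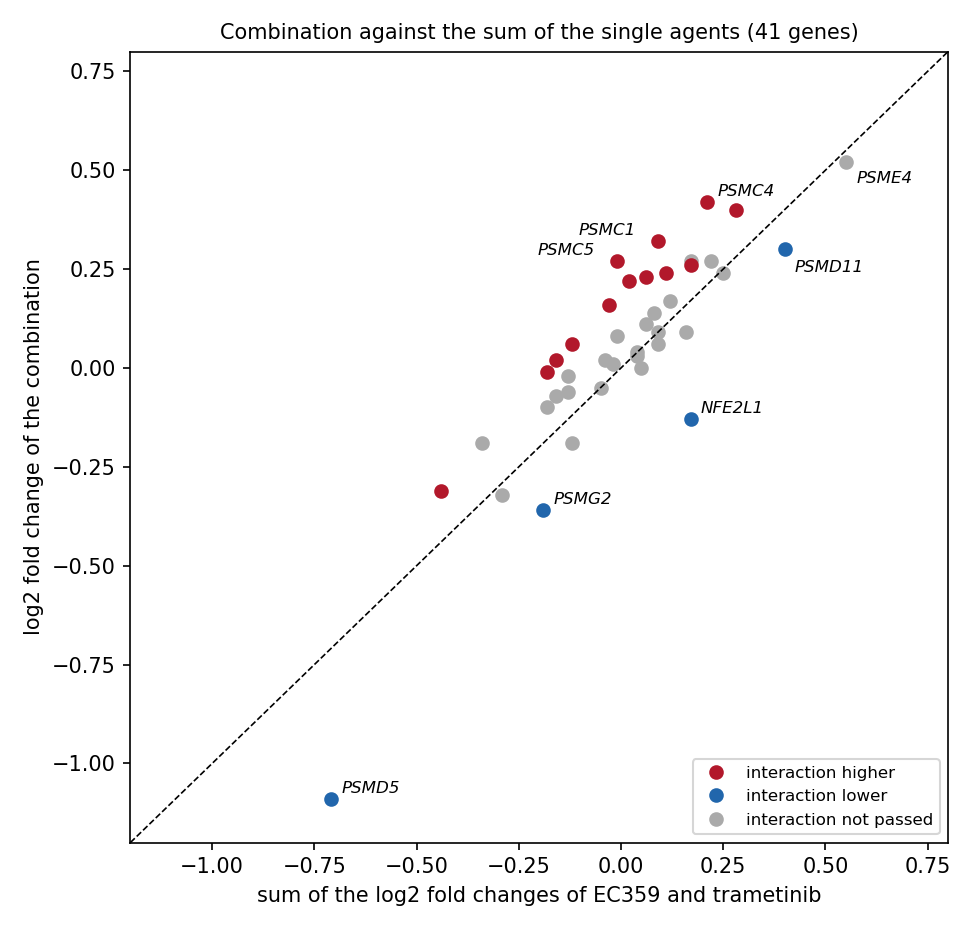
Log2 fold change of the combination compared to control (y axis, TMM scale) against the sum of the log2 fold changes of EC359 and trametinib (x axis) for 41 proteasome genes, without PSMB3. Red points had a higher and blue points a lower interaction at an adjusted p of 0.05, grey points did not pass, and the dashed line marks equality; PSMD5 and NFE2L1 lie below the line, with interactions of -0.38 and -0.30.

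Genes around NFE2L1 included larger log2 fold changes than any proteasome gene that passed. Of 13 genes in a list of its processing enzymes, partners and relatives, 8 were higher and 4 lower in the combination (35.0% and 34.7% of all genes), 9 and 2 with EC359 (30.8% and 30.3%) and 1 and 4 with trametinib (13.0% and 15.2%), so that the lower genes in the combination were near the share of all genes, and their median log2 fold changes were 0.48, 0.30 and -0.05. Total counts gave 8 and 5 in the combination, 7 and 4 with EC359 and 3 and 3 with trametinib. The small MAF genes encode the partners with which NFE2L1 binds DNA. MAFK was at 26.8, 23.8 and 23.8 CPM in control, 161, 164 and 169.6 CPM with EC359, 26.1, 24.3 and 25.7 CPM with trametinib and 222, 223 and 219 CPM with the combination, and its log2 fold change in the combination was 3.16 ± 0.04. MAFG was at 38.6, 42.4 and 41.4 CPM in control, 178, 182 and 178 CPM with EC359, 35.2, 39.2 and 35.8 CPM with trametinib and 207, 209 and 214 CPM with the combination, and changed by 2.36 ± 0.03 in the combination. EC359 and combination libraries of both genes stood far above control and trametinib, and the combination was the highest. MAFF was at 65.1, 68.5 and 66.7 CPM in control, 456, 465 and 463 CPM with EC359, 16.9, 16.7 and 18.1 CPM with trametinib and 303, 312 and 313 CPM with the combination. It was lowest with trametinib (-1.95 ± 0.04), highest with EC359 (2.79 ± 0.03) and in between with the combination (2.21 ± 0.03), and its interaction was 1.37 ± 0.05 (edgeR with Benjamini-Hochberg adjustment, adjusted p = 7.06e-31).

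The 4 genes of that list that fell in the combination were NFE2L3, DDI2, BTRC and NGLY1. NFE2L3, a close relative of NFE2L1, was at 26, 23.8 and 25.3 CPM in control, 18.8, 19.9 and 16.9 CPM with EC359, 12.5, 11.7 and 9.9 CPM with trametinib and 7.98, 6.41 and 7.93 CPM with the combination. Its groups did not overlap, and its log2 fold change in the combination was -1.75 ± 0.08. DDI2, the protease that cuts NFE2L1, was at 10.3, 10.8 and 11.9 CPM in control, 15.1, 13.1 and 12.5 CPM with EC359, 9.3, 9.95 and 8.79 CPM with trametinib and 7.62, 6.56 and 6.5 CPM with the combination. It was higher with EC359 (0.30 ± 0.09) and lower with the combination (-0.68 ± 0.09). The EC359 value was 0.17 with total counts only and did not pass. The interaction of DDI2 was -0.74 ± 0.13 (edgeR with Benjamini-Hochberg adjustment, adjusted p = 7.59e-06). NGLY1, the enzyme that removes sugar chains from NFE2L1, changed by -0.32 and BTRC, part of a ubiquitin ligase, by -0.41 in the combination. NFE2L2, a paralog that binds the same elements, was named after its values were seen: it was at 0.89 ± 0.03 with EC359 and 0.73 ± 0.03 with the combination.

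**Figure D5:**
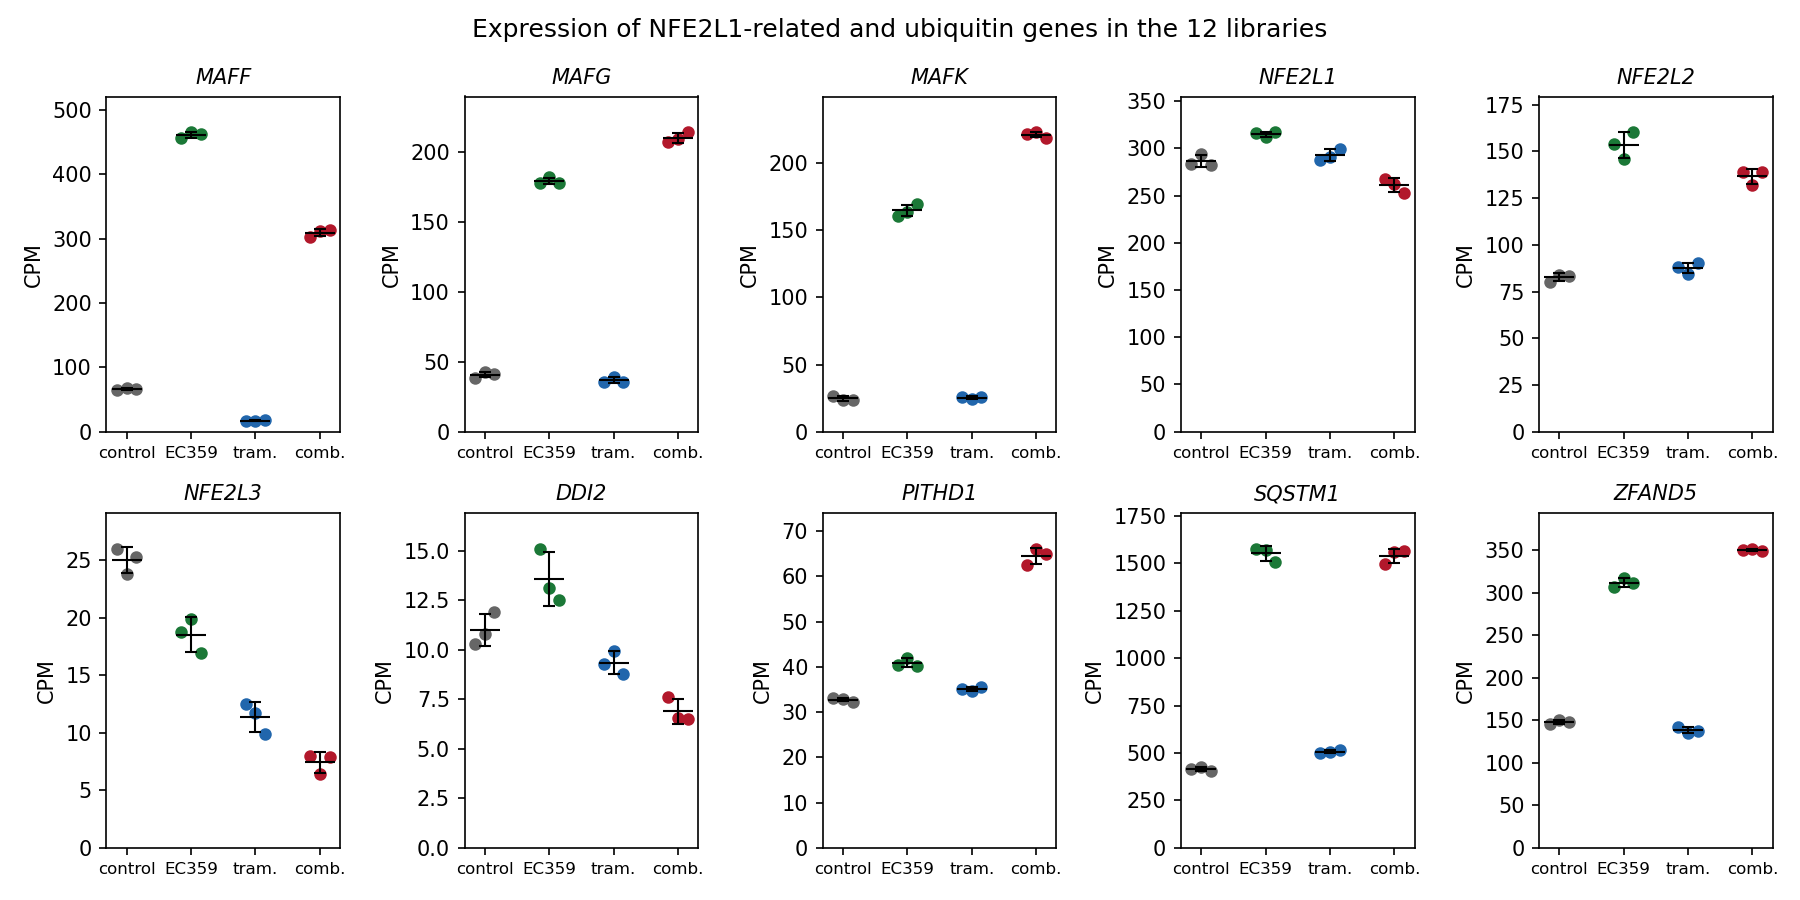
Expression of NFE2L1 and 9 genes related to it, to ubiquitin or to the proteasome, in CPM after TMM (y axes from 0) in the 12 libraries, by condition (tram., trametinib; comb., the combination). Points are libraries, long bars are means and whiskers are SD, n = 3; MAFF lies between 16.7 and 18.1 CPM with trametinib and between 456 and 465 CPM with EC359.

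Of 14 tested genes for ubiquitin, its activating enzymes and shuttle proteins, 11 were higher and 2 lower in the combination (35.0% and 34.7% of all genes) and 10 and 0 with EC359 (30.8% and 30.3% of all genes), with medians of 0.21 and 0.17. With total counts only these were 8 and 2, and 6 and 2. Trametinib raised 2 and lowered 2 (13.0% and 15.2% of all genes), or 3 and 1 with total counts only. SQSTM1, which delivers ubiquitinated cargo to autophagy, was at 416, 424 and 407 CPM in control, 1577, 1570.3 and 1508 CPM with EC359, 502, 504 and 515 CPM with trametinib and 1498, 1558 and 1565 CPM with the combination. EC359 and the combination overlapped each other far above control and trametinib. SQSTM1 changed in the combination by 1.89 ± 0.02 (edgeR with Benjamini-Hochberg adjustment, adjusted p = 1.48e-54). UBQLN2, a shuttle protein, was at 36.1, 35.9 and 36 CPM in control, 53, 54.8 and 49.3 CPM with EC359, 39.4, 41.3 and 42.7 CPM with trametinib and 54.7, 53.1 and 57 CPM with the combination. Its EC359 and combination libraries lay above the others, and it changed by 0.61 ± 0.04 in the combination. The lower genes were UBA6, an activating enzyme (-0.20), and UBQLN4 (-0.14). With trametinib SQSTM1 and UBQLN2 were higher, by 0.29 and 0.19, and RPS27A and UBA6 lower, by -0.10 and -0.07.

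Among 12 tested genes of further subunits and proteasome-bound proteins, 7 were higher and 5 lower in the combination (35.0% and 34.7% of all genes), 6 and 4 with EC359 (30.8% and 30.3%) and 0 and 3 with trametinib (13.0% and 15.2%), with medians of 0.20, 0.11 and -0.06. Total counts gave 5 and 5 in the combination and with EC359, and 2 and 1 with trametinib. ZFAND5, a zinc finger protein that stimulates the proteasome, was at 146, 150.4 and 148 CPM in control, 307, 317 and 312 CPM with EC359, 142, 135 and 138 CPM with trametinib and 350.5, 352 and 349.7 CPM with the combination. Its groups did not overlap, with the combination highest, and it changed by 1.24 ± 0.03 in the combination. PAAF1, which binds the ATPases during assembly of the 19S particle, was at 14.1, 15.9 and 13.2 CPM in control, 11.2, 9.5 and 10.1 CPM with EC359, 14.9, 14.5 and 14.7 CPM with trametinib and 6.59, 7.45 and 7.67 CPM with the combination. It was lowest in the combination, at a log2 fold change of -0.99 ± 0.09, and was at -0.49 ± 0.08 with EC359, so this gene fell in the same comparisons as PSMD5 and PSMD10. PITHD1, a protein that binds the proteasome, was at 33.1, 32.9 and 32.3 CPM in control, 40.5, 42 and 40.2 CPM with EC359, 35, 34.7 and 35.5 CPM with trametinib and 62.6, 66.1 and 64.9 CPM with the combination. The combination libraries were the highest, and its log2 fold change there was 0.98 ± 0.04. AKIRIN2, which brings the proteasome into the nucleus, rose by 0.37 in the combination, and TXNL1, a thioredoxin bound to the 19S particle, by 0.43. The other lower genes in the combination were PSMG4, a partner of PSMG3 (-0.54), UCHL5, a deubiquitinase bound by ADRM1 (-0.47), PSMF1, an inhibitor of the core (-0.13), and UBE3C, a ubiquitin ligase (-0.11). With trametinib ZFAND5, UBE3C and PSMF1 fell, by 0.10, 0.08 and 0.07 on the log2 scale.

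Of the 5 genes of the immunoproteasome and its activator, PSMB10, an inducible protease subunit, fell in the combination and with EC359. PSMB10 was at 18.5, 18.5 and 16.4 CPM in control, 12.3, 14.4 and 13.6 CPM with EC359, 14.9, 19.3 and 19.4 CPM with trametinib and 13.4, 13.5 and 14.5 CPM with the combination. Control libraries lay above those of EC359 and the combination, which overlapped, and trametinib overlapped control. Its log2 fold change was -0.36 ± 0.08 in the combination and -0.40 ± 0.08 with EC359. PSME2, a subunit of the activator, fell with EC359 by 0.10 on the log2 scale and was higher in the combination than with EC359 alone, by 0.17 ± 0.04. PSMB8 and PSMB9, the other inducible subunits, lay at or under 2.38 CPM in every library.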

How the data were processed

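RNA of OVCAR8 cells in 4 conditions was sequenced in 3 libraries each. The authors deposited estimated counts per gene. According to the headers they ran featureCounts 1.5.0-p1 on reverse-stranded read pairs, with a minimum mapping quality of 2 and exons summed by gene in an hg38 annotation. Reads with several placements or several genes were divided as fractions. The sample labels give the reads as paired and of 100 bp. The submitters' processing notes also name bcl2fastq and HISAT2. Dividing reads makes genes with copies elsewhere uncertain, and every one of the 42 proteasome genes had a value that was not whole in at least 1 library.

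Counts were rounded to whole numbers, and filterByExpr (minimum count 10, minimum total 15) set which genes were tested, in R 4.3.3 with edgeR 4.0.16. CPM are counts scaled to library size after TMM (factors 0.947 to 1.06). Counting error alone allows up to 3 reads where 0 were counted, which is 0.0924 to 0.121 CPM. A robust quasi-likelihood model with condition as its only term was fitted to the 12 libraries, with Benjamini-Hochberg adjustment over 14866 genes. The biological coefficient of variation was 3.95%. Log2 fold changes are given with their standard errors. Genes and gene lists were chosen with earlier results of these data known. All 42 genes could be named. Values per library are given for NFE2L1, POMP, PSMB5, PSMD4, ADRM1 and, in each of the 6 comparisons, the 6 genes with the largest absolute log2 fold change among those that passed, and in other lists for the 3 genes with the largest changes in the combination, 1 of which is not reported here. PSMB3 and genes needed to account for a small count were added after their values were seen, as were AKIRIN2, TXNL1, NFE2L2, PSMB8, PSMB9, BAG6 and UBB.

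The alternatives tried were a replicate block, each library left out in turn, a fit of only the compared groups, no filter or a filter of 10 counts in all libraries, DESeq2 1.42.0, its size factors in edgeR, and total counts as the only scaling. Promoter sequences are those of RefSeq (GRCh38.p14), and a gene counted as holding a motif if any of its windows did.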

Additional observations from a re-analysis of the deposited data

Results flagged for a closer look

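In 17 of the proteasome genes the effect of EC359 differed between cells with and without trametinib, by the interaction term in edgeR at an adjusted p of 0.05 (2146 genes of all tested were higher and 2361 lower). The interaction, a log2 value, was above 0 in PSMA2 (0.18), PSMA6 (0.16), PSMA7 (0.19), PSMB4 (0.12), PSMB7 (0.17), PSMC1 (0.23), PSMC3 (0.20), PSMC4 (0.22), PSMC5 (0.27), PSMD2 (0.09), PSMD3 (0.13), PSME3 (0.14) and POMP (0.18). In 4 genes it was below 0, at -0.38 in PSMD5, -0.10 in PSMD11, -0.17 in PSMG2 and -0.30 in NFE2L1. The call on PSMD2 was lost with total counts only (0.06) and without control replicate 1, EC359 replicate 1, trametinib replicate 1 or 2 or combination replicate 1 or 2. The call on PSMD11 was lost without control replicate 2, EC359 replicate 2, trametinib replicate 2 or 3 or combination replicate 2, and that on PSMD3 without control replicate 2 (0.09). For NFE2L1 the single agents and the combination pointed in different directions, with log2 fold changes of 0.14 with EC359, 0.03 with trametinib (not passed) and -0.13 with the combination.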

How the results depend on the processing

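Counting on total counts only moved the results most: 8 higher and 22 lower genes and a median log2 fold change of -0.07 with EC359, 2 lower and a median of -0.02 with trametinib, 13 higher, 21 lower and a median of -0.07 with the combination, and 14 higher, 20 lower and a median of -0.03 for the combination against trametinib. By its construction this setting omits the TMM factors, and the median of all genes moved to -0.15, 0.03, -0.14 and -0.16 in these 4 comparisons. Single genes turned with it: PSMB5 (-0.03), PSMD4 (-0.11), PSMC5 (-0.09) and PSMC3 (-0.06) with EC359; POMP (-0.11), PSMB5 (-0.03), PSMD4 (-0.10) and ADRM1 (-0.08) with the combination; and PSMB5 (-0.01), PSMD4 (-0.14), PSMA6 (-0.09) and PSMA5 (-0.15) for the combination against trametinib. DESeq2 gave 2 genes past a 2-fold change in the combination, PSMB3 besides PSMD5; the cause was not tested. When each library was left out in turn, trametinib lowered 4 to 9 genes (4 without control replicate 1, 5 without trametinib replicate 2), and 1 to 2 genes passed a 2-fold change in the combination (2 without combination replicate 2 or 3, with PSMB3). The combination then raised 19 to 22 and lowered 8 to 10 genes, and EC359 raised 19 to 22 and lowered 8 to 12. Single genes were followed over the settings only where the values of a proteasome gene are given per library. Most of these genes were picked for having the largest changes that passed, which favors calls that hold. The other proteasome genes are not in this count. Over all settings, 1578 of 1660 values of the genes followed kept their side of the threshold. They include values that changed sign but passed in neither setting, such as PSMB3 in the combination without combination replicate 1. Of the others, 48 no longer passed and 22 newly passed in the same direction, and 12 changed sign and passed in either setting. Libraries with the same replicate number did not deviate together (r from -0.07 to 0.03 over 18 pairs, 1 of 12 libraries closest to its own number). No pairing by number was seen, and a shared origin too weak to show in these correlations was not tested. A replicate block gave 21 higher and 11 lower genes with EC359, 10 lower with trametinib, 21 and 9 with the combination, 10 and 7 for the combination against EC359, 26 and 7 against trametinib, and 13 and 4 for the interaction.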

Other observations

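Some genes of the ubiquitin and proteasome system had counts that stood apart from the rest of it, and were named after their values were seen. UBB, a ubiquitin gene, had 0 to 4 counts per library and did not pass the filter on low counts. BAG6, a chaperone of the ubiquitin system that the annotation places on 6 alternate contigs as well as on chromosome 6, was at 18.7, 18 and 8.48 CPM in control, 11.1, 11.3 and 12.3 CPM with EC359, 6.27, 15.8 and 20.7 CPM with trametinib and 11.2, 8.76 and 20.8 CPM with the combination. The SD within control, trametinib and the combination (5.72, 7.33 and 6.35 CPM) was larger than any difference between the means of the conditions. PSMB8 and PSMB9, on 7 alternate contigs each, ran from 0.552 to 1.64 CPM and from 0 to 2.38 CPM. The part of the alternate contigs in these values was not tested.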
